A study of Mus musculus with 9 samples.

Results

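The heat shock proteins of the cytosol and their transcription factor were followed by RNA-Seq in Hepa1-6, a mouse hepatoma cell line, under 2 antibiotics. The 10 genes were Hsf1, Hspa1a, Hspa1b, Hspa8, Hsp90aa1, Hsp90ab1, Dnajb1, Hspb1, Hsph1 and Bag3, found by gene symbol among the protein-coding genes of the 56748 genes counted. Lefamulin and tiamulin, antibiotics of the pleuromutilin class, were each added at 37 µg/mL for 2 days, and 3 libraries were made for either drug and 3 for the control. The sample labels give the control as untreated, whereas the methods of the study call it a vehicle control. All groups share the same cell line and the same medium, which contained fetal bovine serum and penicillin-streptomycin, so the control cells also grew with antibiotics. A single established line stands for each condition, and nothing in the labels says that the 3 libraries of a group came from separate cultures, so p values here measure the spread between libraries, which may be technical.

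Cytosolic chaperones keep proteins soluble and help them fold. HSP70 proteins bind short unfolded stretches in cycles of ATP binding and hydrolysis, with J proteins delivering clients and nucleotide exchange factors releasing them, and HSP90 proteins act later on kinases, steroid receptors and other near-native clients. Under heat or other proteotoxic stress the transcription factor HSF1 binds heat shock elements, which are alternating copies of GAA and TTC, and turns on the inducible members such as Hspa1a, Hspa1b, Hspb1, Dnajb1 and Hsph1, whereas Hspa8 and Hsp90ab1 are made at high levels without stress.

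Promoter stretches are shown here for Hspa1a, Hspa1b and Hspb1, which were at or near 0 counts, and for Hsph1, which was lower under tiamulin, since heat shock element letters stand near their start sites. RefSeq promoters of GRCm38.p6 were at hand for 6 of the 10 members, Hspa1a, Hspa1b, Hspb1, Hsph1, Dnajb1 and Bag3. The search covered the 250 bases before each start site for a pair of units, GAANNTTC or TTCNNGAA, and for 3 units in a row, GAANNTTCNNGAA or TTCNNGAANNTTC, on both strands. A pair stood in the promoters of 4 members, Hspa1a, Hspa1b, Hspb1 and Hsph1, and neither form was found in the windows of Dnajb1 and Bag3. Among all 32841 promoters of the same length, 12.8% held a pair (those with 3 units, which contain a pair, included) and 0.466% held 3 units, a form seen in no member window. Each of the 80-base stretches that follow is written 5′ to 3′ along the gene, with the pair in capitals. The Hspa1a stretch is chr17:34972218-34972297 and the Hspa1b stretch is chr17:34959300-34959379, both on the minus strand and from 141 to 62 bases before the start site. That of Hspb1 is chr5:135887775-135887854 on the plus strand, from 144 to 65 bases before the start site, and that of Hsph1 is chr5:149636337-149636416 on the minus strand, the last 80 bases before the upstream one of its start sites in the table.
Hspa1a: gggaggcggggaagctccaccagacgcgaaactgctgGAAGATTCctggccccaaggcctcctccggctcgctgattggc
Hspa1b: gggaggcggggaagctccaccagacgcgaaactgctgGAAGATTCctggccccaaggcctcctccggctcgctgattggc
Hspb1: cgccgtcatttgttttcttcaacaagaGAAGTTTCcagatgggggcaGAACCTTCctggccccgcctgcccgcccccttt
Hsph1: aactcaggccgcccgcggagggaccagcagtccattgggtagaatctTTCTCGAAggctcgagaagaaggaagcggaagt
The stretches of Hspa1a and Hspa1b had the same letters, and 247 of the 250 promoter bases (98.8%) were identical between both genes. Hspb1 had 2 pairs, from 117 to 110 and from 97 to 90 bases before its start. A match is a run of letters in the window and no evidence that HSF1 was bound there.

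Total counts per library lay between 15568887 and 18008105, and 14510 genes had enough counts to be tested. Of the 10 members, 7 passed that filter, and Hspa1a, Hspa1b and Hspb1 did not. Levels are given as CPM, counts scaled to a common library size with TMM, or, between genes, as the deposited FPKM, which is per kilobase of gene length. Library tiamulin 2 stood apart from its group. The chi-square per degree of freedom between its counts and those of the other tiamulin libraries was 18.2 and 20.7, against 2.88 to 7.61 for the other pairs within a group, and its deviation from the group mean rose with the GC content of the gene (Spearman's rho of 0.673 across 11016 genes, which are no independent replicates). That correlation was 0.466 for control 1 and -0.466 for control 2, and both comparisons with control use these libraries. Deviations sum to 0 within a group, so the values of libraries in a group are not independent of each other. Where leaving out tiamulin 2 changed a member's call against control, the value without it is given too. Hepatocyte markers had a summed level of 5582 to 6133 CPM in control, 5314 to 5670 CPM in lefamulin and 5006 to 5939 CPM in tiamulin libraries, with Alb and Afp present in each library, while 2 of the 9 markers, Apoa1 (1 to 6 counts a library) and Ttr (0 to 2 counts), were too low to be tested. Blood cell markers summed to 11.4 to 11.7 CPM in control, 13.0 to 17.8 CPM in lefamulin and 16.4 to 21.2 CPM in tiamulin libraries, with Cd3e, Adgre1 and Hbb-bs at 0 in each library. Within these lists markers moved in opposite directions. Under tiamulin Afp (0.572-fold), Alb (0.709-fold) and Apoe (0.745-fold) fell while Krt18 (1.30-fold) rose, and under both drugs Cd68 and Ptprc rose while Csf1r fell, each with an edgeR adjusted p below 0.05. Fibroblast and endothelial markers, of which Dcn made up nearly the whole, summed to 1478 to 1563 CPM, 1126 to 1181 CPM and 1033 to 1124 CPM, in the same order of groups, with Col1a2 and Tek at 0 in control and lefamulin libraries. The part of these shifts in the results that follow was not tested. In bulk RNA, fewer cells that express a gene and less RNA per cell cannot be told apart.

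None of the 7 tested members rose under either antibiotic, with 0 higher at an unadjusted p below 0.05 in edgeR and 0 in DESeq2. Under lefamulin Hspa8, the constitutive HSP70, fell by 18.7% and Hsp90ab1, the constitutive HSP90, fell by 17.0%, and under tiamulin Hsph1, the HSP110 of the cytosol, fell by 20.5%. At an adjusted p below 0.05 (edgeR's quasi-likelihood test, Benjamini-Hochberg over all genes tested), 2 of the 7 tested members were called under lefamulin, both lower, against 13.1% of all tested genes called and 6% called lower. Under tiamulin 1 of 7 was called, lower, against 16.4% of all tested genes called and 7.34% called lower. No member had an absolute log2(fold change) above 1, a size that 1.5% of the tested genes reached with an adjusted p below 0.05 under lefamulin and 1.78% under tiamulin. The median log2(fold change) of the tested members was -0.15 under lefamulin and -0.07 under tiamulin, beside -0.0019 and 0.0034 over all tested genes. Estimates were below 0 for 5 of 7 members under lefamulin and 6 of 7 under tiamulin, where 50.3% and 49.4% of all tested genes lay below 0. All lefamulin libraries lay below all control libraries for 4 of the 7 members, Hspa8, Hsp90ab1, Dnajb1 and Hsph1, as they did for 18.8% of all tested genes, and no member lay wholly above the controls, as 18.9% of all tested genes did. All tiamulin libraries lay below the controls for 2 members, Hspa8 and Hsph1, as they did for 15.2% of all tested genes, and none of the tested members lay wholly above, against 17.1%. Both comparisons use the same control libraries and so are not independent. Summed over the 10 members, heat shock transcripts took 0.609% to 0.613% of the counts in control libraries, 0.534% to 0.546% in lefamulin libraries and 0.563%, 0.594% and 0.567% in tiamulin libraries 1 to 3. The ranges of the 3 groups did not overlap.

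**Figure D1:**
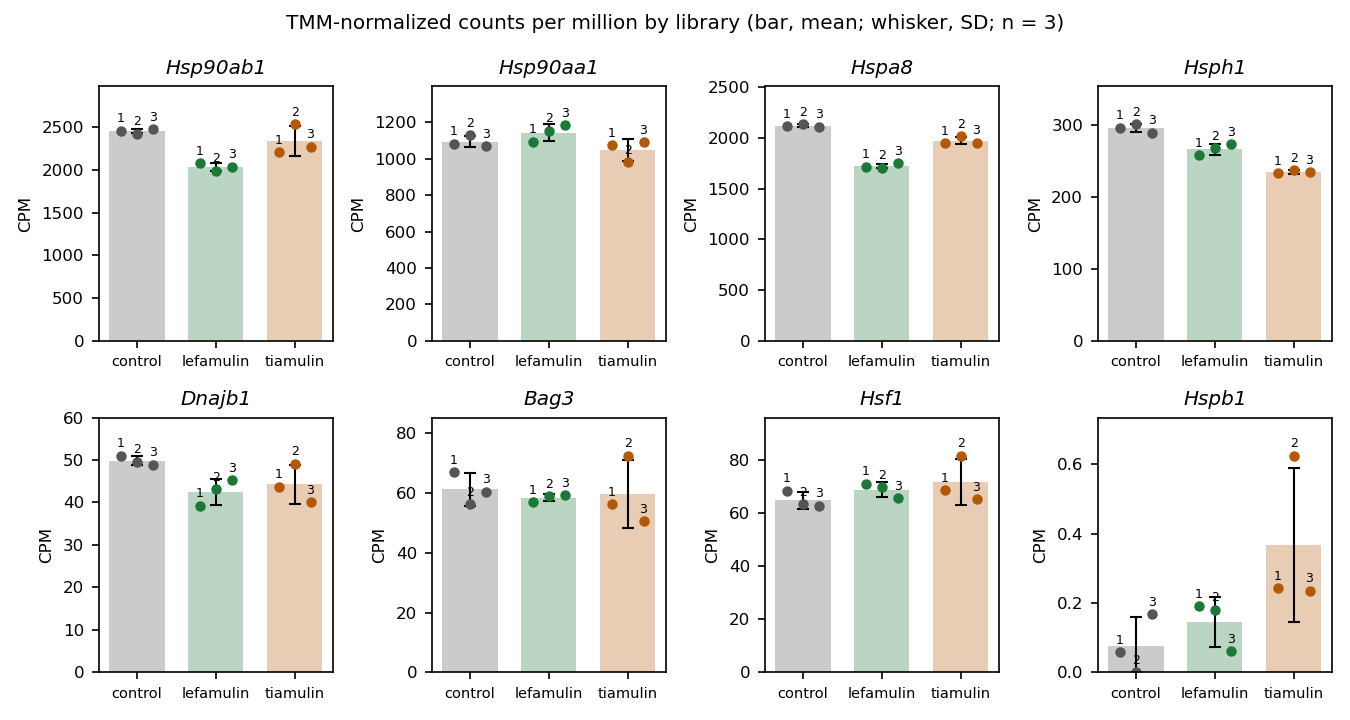
Level of the 8 members with any count, in TMM-normalized CPM (linear axis from 0), for each of 9 libraries. Points are libraries numbered 1 to 3 within a group, bars are group means and whiskers are SD (n = 3). Hspa8 and Hsp90ab1 are lowest in the 3 lefamulin libraries and Hsph1 is lowest in the 3 tiamulin libraries.

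In control cells the deposited FPKM ordered the members as Hsp90ab1 at 814 ± 8.11 (SD, n = 3), Hspa8 at 491 ± 3.38, Hsp90aa1 at 277 ± 7.96, Hsph1 at 40.6 ± 0.827, Bag3 at 23.8 ± 2.12, Dnajb1 at 15.5 ± 0.345 and Hsf1 at 9.09 ± 0.447. The ranges of neighbours in this order did not overlap, and the order was the same in the lefamulin and the tiamulin libraries. FPKM divides by the deposited gene length, which was 7099 bases for Hsf1 and 2562 for Bag3. Their longest protein-coding transcripts in GENCODE M21 had 2104 and 2562 bases. In CPM, which holds no length, the control mean of Hsf1 (64.8) stood above those of Bag3 (61.3) and Dnajb1 (49.8). The place of Hsf1 in the order thus depends on the length used. Hspb1 was at 0.0724 ± 0.0821 FPKM, and Hspa1a and Hspa1b were at 0. By FPKM the most abundant members were thus the constitutive HSP90 and HSP70, while Hspa1a, Hspa1b and Hspb1 lay at or near 0 in all groups. Of the 100-base stretches of Hspa8, 36.6% occurred in no other gene, against 100% for Hsp90ab1. How reads that fit several genes were counted is not known, and its part in this order was not tested.

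Hsf1, the main transcription factor of the heat shock response (ENSMUSG00000022556, deposited position chr15:76361622-76386113, plus strand), was counted 1186, 1088 and 1123 times in control libraries, 1112, 1156 and 1070 times in lefamulin libraries and 1128, 1306 and 1108 times in tiamulin libraries. The 3 groups overlapped, and the highest value was that of tiamulin 2. In CPM the means were 64.8 ± 3.16 in control, 68.7 ± 2.84 under lefamulin and 71.7 ± 8.63 under tiamulin (SD, n = 3). The log2(fold change) of Hsf1 was 0.08 under lefamulin (95% interval from -0.09 to 0.26, edgeR adjusted p = 0.559) and 0.15 under tiamulin (-0.03 to 0.32, edgeR adjusted p = 0.256). Under tiamulin the estimate was 0.045 without tiamulin 2 and 0.086 with the GC and length trends removed. These are levels of the transcript. HSF1 is regulated mostly as a protein, by its binding to chaperones, by trimer formation and by modification, none of which is measured by RNA-Seq.

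Hspa1a (ENSMUSG00000091971, chr17:35188166-35191132 as deposited, minus strand) and Hspa1b (ENSMUSG00000090877, chr17:35175412-35178214 as deposited, minus strand), which encode the stress-inducible HSP70, had no read assigned to them in any of the 9 libraries. A count of 0 allows up to 3 counts, which is 0.167 to 0.191 CPM in a single library and 0.0199 CPM over the 150629150 counts of all libraries together, for counting error only. The genes are near-identical copies. In the GENCODE M21 transcripts, 43.5% of the 100-base stretches of Hspa1a and 50.1% of those of Hspa1b occurred in no other gene, and the rest were shared with each other or with Hspa1l, Gm10501 or Gm20481. Reads that fit several genes may have been left out of the counts, so both zeros apply to reads that could be assigned to a single gene. Of the genes that share stretches, Hspa1l had 9 to 27 counts per library, Gm10501 had 4 to 24, and Gm20481, which overlaps Hspa1a on the opposite strand, had 0. With both genes at 0, no fold change, test or ratio to Hspa8 was computed.

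Hspa8, the constitutive HSP70 (ENSMUSG00000015656, chr9:40712280-40721383 as deposited, plus strand), was at 2116, 2134 and 2110 CPM in control libraries, 1717, 1706 and 1747 CPM in lefamulin libraries and 1949, 2015 and 1953 CPM in tiamulin libraries. All lefamulin libraries lay below all control libraries, and the tiamulin libraries lay between these groups with no overlap. Under lefamulin Hspa8 fell by 18.7% (log2(fold change) -0.30, SE 0.043, 95% interval from -0.39 to -0.21, edgeR adjusted p = 0.000389). Under tiamulin it stood at 93.0% of the control level (log2(fold change) -0.10, 95% interval from -0.20 to -0.01, edgeR adjusted p = 0.119), and without tiamulin 2 the value was -0.12 and passed the test (edgeR adjusted p = 0.00901). Tested directly, Hspa8 was higher under tiamulin than under lefamulin, with a log2 difference of 0.19 (95% interval from 0.10 to 0.29, edgeR adjusted p = 0.0205), or 0.18 without tiamulin 2 (edgeR adjusted p = 0.000757). The processed pseudogene Gm15459, which shares stretches with the Hspa8 transcript, had 605 to 653 counts in control, 428 to 468 in lefamulin and 508 to 601 in tiamulin libraries, so the same order of groups was counted there, and some reads may have been placed on either copy.

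Hsp90ab1, the constitutive HSP90 (ENSMUSG00000023944, chr17:45878701-45884197 as deposited, minus strand), was at 2459, 2421 and 2472 CPM in control libraries, 2076, 1990 and 2037 CPM in lefamulin libraries and 2210, 2534 and 2271 CPM in tiamulin libraries. The lefamulin libraries lay below both other groups, and tiamulin 2 lay above each control library while tiamulin 1 and 3 lay below them. Lefamulin lowered Hsp90ab1 to 83.0% of the control level (log2(fold change) -0.27, SE 0.054, 95% interval from -0.38 to -0.15, edgeR adjusted p = 0.00439). For tiamulin the value was -0.07 (-0.18 to 0.05, edgeR adjusted p = 0.438), and without tiamulin 2 it was -0.13 (edgeR adjusted p = 0.00592). The level under tiamulin exceeded that under lefamulin by 0.20 on the log2 scale (0.09 to 0.32, edgeR adjusted p = 0.0472), and by 0.14 without tiamulin 2 (edgeR adjusted p = 0.00885).

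Hsp90aa1, the more heat-responsive HSP90 (ENSMUSG00000021270, chr12:110657039-110669162 as deposited, minus strand), averaged 1094 ± 30.5 CPM in control, 1144 ± 46.0 CPM under lefamulin and 1048 ± 59.0 CPM under tiamulin (SD, n = 3). Its log2(fold change) was 0.07 under lefamulin (95% interval from -0.05 to 0.18, edgeR adjusted p = 0.484) and -0.06 under tiamulin (-0.18 to 0.05, edgeR adjusted p = 0.496). All tiamulin libraries lay below all lefamulin libraries, but the log2 difference of -0.13 (-0.24 to -0.01) did not pass the test (edgeR adjusted p = 0.194). Pseudogene copies share part of this transcript too, and 52.5% of its 100-base stretches occurred in no other gene, against 36.6% for Hspa8 and 100% for Hsp90ab1.

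The ratio of the HSP90 genes was taken within each library, where depth cancels. It was chosen with results for both genes known, so it is no independent support for the difference between them. Hsp90aa1 over Hsp90ab1 in FPKM was 0.336, 0.355 and 0.330 in control libraries, 0.402, 0.442 and 0.444 in lefamulin libraries and 0.371, 0.295 and 0.366 in tiamulin libraries. The lefamulin libraries lay above both other groups, and tiamulin 2 had the lowest ratio of the 9. The ratio was 1.26-fold higher under lefamulin than in control, a log2 difference of 0.33 (exact two-sided permutation test p = 0.1, the smallest that 3 against 3 libraries allow, so the test could not pass 0.05). Tiamulin differed from control by 0.01 on the log2 scale (exact two-sided permutation p = 1) and from lefamulin by -0.33 (exact two-sided permutation p = 0.1). Without tiamulin 2 these differences were 0.11 and -0.22, and both remaining tiamulin libraries lay above every control library.

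**Figure D2:**
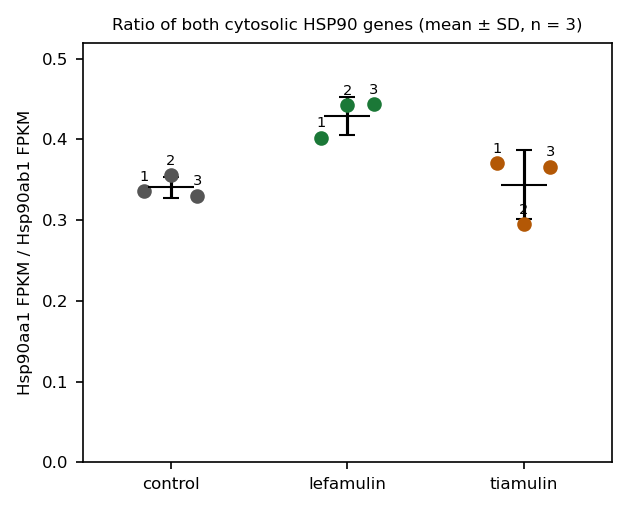
Ratio of Hsp90aa1 to Hsp90ab1 in deposited FPKM (linear axis from 0), with a point for each library, numbered 1 to 3 within a group, a bar at the group mean and whiskers of 1 SD (n = 3). Lefamulin libraries average 0.429, against 0.341 in control and 0.344 under tiamulin, where library 2 is the lowest point.

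Hsph1, an HSP110 protein that acts as a nucleotide exchange factor for HSP70 (ENSMUSG00000029657, chr5:149537752-149559841 as deposited, minus strand), was counted 5141, 5182 and 5195 times in control, 4049, 4451 and 4474 times in lefamulin and 3834, 3809 and 3988 times in tiamulin libraries. In CPM this was 296 ± 5.74, 267 ± 7.78 and 235 ± 2.39 (SD, n = 3), and the 3 groups did not overlap. Tiamulin lowered Hsph1 to 79.5% of the control level (log2(fold change) -0.33, SE 0.050, 95% interval from -0.44 to -0.22, edgeR adjusted p = 0.00041). For lefamulin the log2(fold change) was -0.15 (-0.26 to -0.04) with an edgeR adjusted p of 0.063, and the same estimate of -0.15 passed without tiamulin 2 in the fit (edgeR adjusted p = 0.00503). Here the tiamulin libraries were the lowest, whereas for Hspa8 and Hsp90ab1 the lefamulin libraries were. The log2 difference of tiamulin from lefamulin was -0.18 (-0.29 to -0.08, edgeR adjusted p = 0.051), or -0.19 without tiamulin 2 (edgeR adjusted p = 0.00572).

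Dnajb1, the J protein that works with HSP70 in the stress response (ENSMUSG00000005483, chr8:84334822-84339282 as deposited, plus strand), was counted 885, 853 and 877 times in control, 615, 717 and 740 times in lefamulin and 719, 787 and 682 times in tiamulin libraries. All lefamulin libraries lay below the controls, while tiamulin 2 reached into the control range on the CPM scale. Its log2(fold change) was -0.23 under lefamulin (95% interval from -0.41 to -0.05, edgeR adjusted p = 0.0945) and -0.17 under tiamulin (-0.35 to 0.01, edgeR adjusted p = 0.196). Without tiamulin 2 both estimates passed the test, at -0.23 under lefamulin (edgeR adjusted p = 0.0141) and -0.25 under tiamulin (edgeR adjusted p = 0.0161). The drugs differed for Dnajb1 by 0.06 (-0.13 to 0.24, edgeR adjusted p = 0.743).

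Bag3, a nucleotide exchange factor that links HSP70 to selective autophagy (ENSMUSG00000030847, chr7:128125340-128148705 as deposited, plus strand), averaged 61.3 ± 5.45 CPM in control, 58.5 ± 1.24 CPM under lefamulin and 59.9 ± 11.4 CPM under tiamulin (SD, n = 3). The counts of tiamulin libraries, 928, 1163 and 861, spanned those of lefamulin libraries, 894, 980 and 970, and reached below those of control libraries, 1164, 969 and 1084. No comparison passed the test, with a log2(fold change) of -0.07 under lefamulin (95% interval from -0.30 to 0.17, edgeR adjusted p = 0.739) and -0.04 under tiamulin (-0.27 to 0.20, edgeR adjusted p = 0.869). The sign of both estimates changed when control 1 was left out, to 0.00034 and 0.035, and that under tiamulin also changed without tiamulin 1 (0.0059) or tiamulin 3 (0.073). Without tiamulin 2 the estimate under tiamulin was -0.20 (edgeR adjusted p = 0.0547).

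Hspb1, the small heat shock protein HSP25 (ENSMUSG00000004951, chr5:135916773-135918417 as deposited, plus strand), was nearly absent. It had 1, 0 and 3 counts in control, 3, 3 and 1 counts in lefamulin and 4, 10 and 4 counts in tiamulin libraries. Each tiamulin library thus had more counts than each library of the other groups, with the highest count in tiamulin 2, at a depth where the control libraries lie at or under the floor of 3 counts. It did not pass the filter on low counts, so no test was made and no fold is given.

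**Figure D3:**
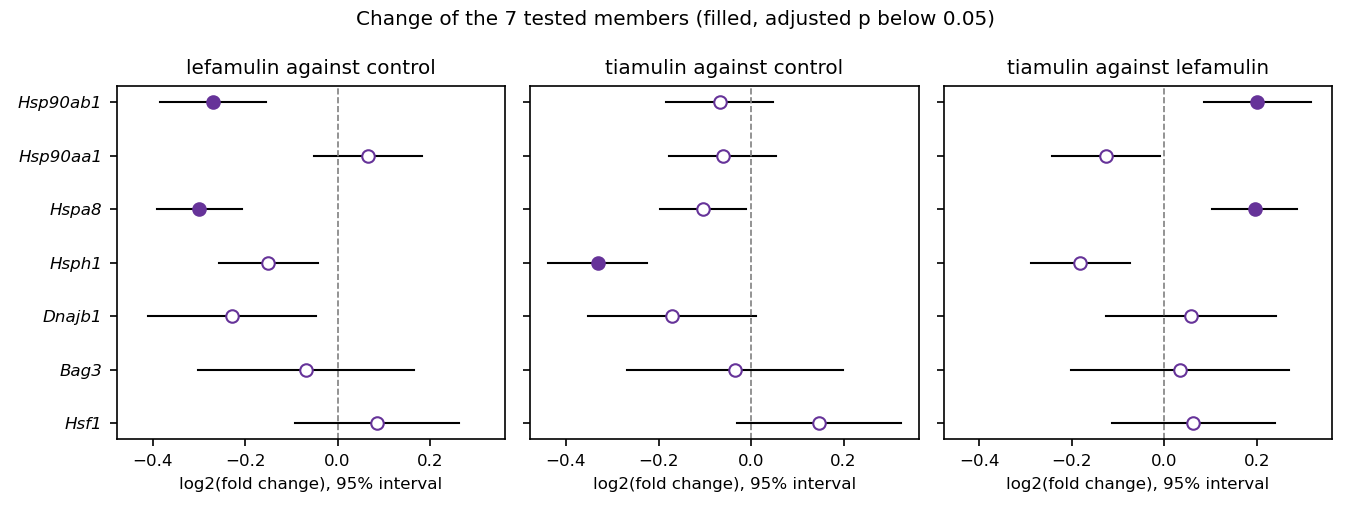
log2(fold change) of the 7 tested members with 95% intervals from a single edgeR fit of 9 libraries, in 3 panels for lefamulin against control, tiamulin against control and tiamulin against lefamulin. Filled points have an adjusted p below 0.05. They are Hsp90ab1 and Hspa8 in the first panel, Hsph1 in the second, and Hsp90ab1 and Hspa8, on the other side of 0, in the third.

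Lefamulin and tiamulin share the pleuromutilin core and differ in the side chain on it, and they were given at the same concentration and for the same time. Set directly against each other in 7 members, the drugs differed for 2, Hspa8 and Hsp90ab1, both higher under tiamulin, where 4.9% of all tested genes were called, 2.85% higher and 2.05% lower. No member differed between the drugs by more than 1 on the log2 scale, as 0.227% of the tested genes did with an adjusted p below 0.05. The median log2 difference of the tested members was 0.06, with 2 of 7 estimates below 0, beside 0.0032 and 49.6% for all tested genes. Tiamulin libraries lay wholly above lefamulin libraries for these 2 members (13.6% of all tested genes) and wholly below them for Hsp90aa1 and Hsph1 (12.9% of all tested genes). The call for Hspa8 held in 14 of 21 alternative settings and was lost without control 3 or any 1 of the lefamulin libraries, with values from 0.19 to 0.20. That for Hsp90ab1 held in 10 of 21 and was lost without any 1 of the control or lefamulin libraries, with values from 0.19 to 0.22. In the other 5 the intervals of the log2 difference were -0.11 to 0.24 for Hsf1, -0.24 to -0.01 for Hsp90aa1, -0.29 to -0.08 for Hsph1, -0.13 to 0.24 for Dnajb1 and -0.20 to 0.27 for Bag3. Concentrations were matched by mass per volume, not by potency on these cells.

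The number of members called moved with the handling of tiamulin 2. Within the tiamulin group that library had the highest CPM for Hsp90ab1, Hspa8, Hsph1, Dnajb1, Bag3 and Hsf1, and the lowest for Hsp90aa1. GC content was 43.7% for Hsp90aa1, 45.9% for Hspa8, 47.3% for Hsph1 and 51.0% to 56.1% for the other tested members. With it left out, 4 of 7 members were called lower under each drug, namely Hspa8, Hsp90ab1, Dnajb1 and Hsph1, beside 12.7% of all tested genes called lower under lefamulin and 11.3% under tiamulin. With all 9 libraries and offsets that remove each library's trend with GC content and gene length, the same 4 members were called lower under each drug, beside 14.6% and 14.1% of all tested genes called lower. Under lefamulin the estimates went from -0.15 to -0.17 for Hsph1 and from -0.23 to -0.26 for Dnajb1 with the offsets. Under tiamulin, with tiamulin 2 left out, they went from -0.07 to -0.13 for Hsp90ab1 and from -0.17 to -0.25 for Dnajb1. Hspa8 and Hsp90ab1 under lefamulin and Hsph1 under tiamulin were called lower in each of the 21 alternative settings run.

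**Figure D4:**
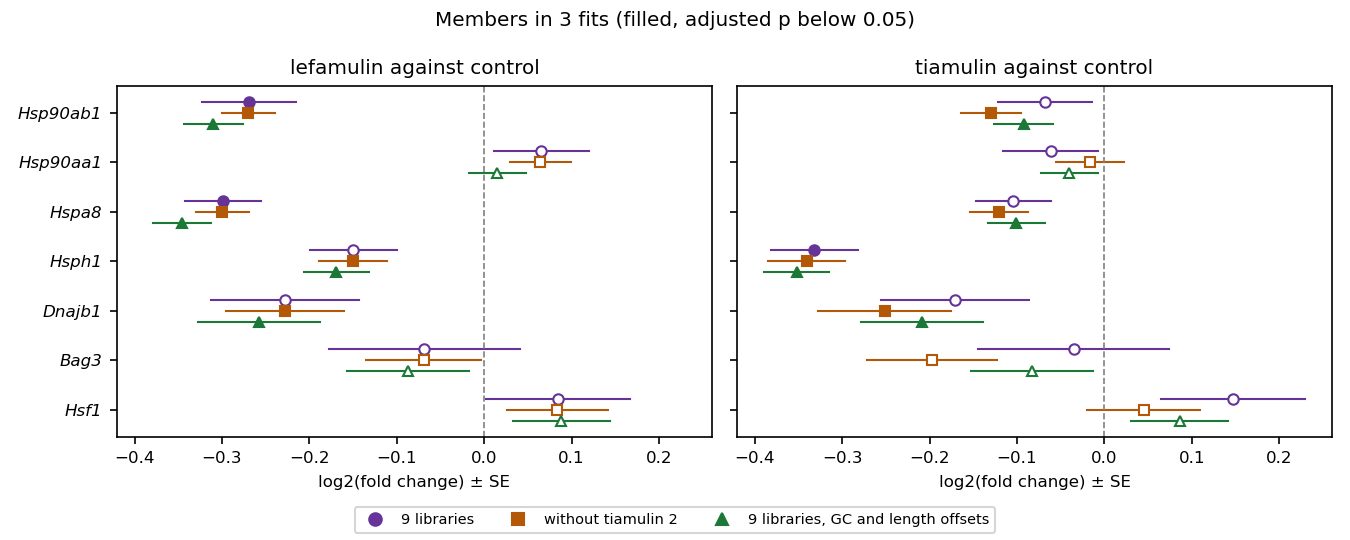
log2(fold change) ± SE of the 7 tested members in 3 edgeR fits, with all 9 libraries (circles), without tiamulin 2 (squares) and with GC and length offsets (triangles). Filled symbols have an adjusted p below 0.05. Hspa8, Hsp90ab1, Hsph1 and Dnajb1 are filled in the squares and the triangles of both panels.

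Around the members, 98 genes of 10 lists were examined, of which 88 were tested. The lists cover other heat shock factors, HSP70 and HSP110 proteins, J proteins, small heat shock proteins, exchange factors, HSP90 co-chaperones, the cytosolic chaperonin TRiC with prefoldin, other HSF1 target genes, and the chaperones of the endoplasmic reticulum and the mitochondrion. Lefamulin raised 10 and lowered 4 of the 88, which is 11.4% and 4.55%, against 7.07% higher and 6% lower among all tested genes. Tiamulin raised 9 and lowered 10, which is 10.2% and 11.4%, against 9.08% and 7.34%. The balance under lefamulin turned with the GC and length offsets, which gave 12 higher and 15 lower, beside 10.6% higher and 14.6% lower among all genes tested in that fit. Without tiamulin 2 it was 18 higher and 9 lower, beside 12.2% higher and 12.7% lower among all genes tested in that fit. Without control 1 it was 3 and 1, in a fit that called 1146 genes in all, against 1897 with all 9 libraries. Under tiamulin the offsets gave 14 higher and 19 lower, beside 13.2% higher and 14.1% lower among all genes tested in that fit. Calls in the lists that follow are those of the fit of all 9 libraries unless another setting is named. In that fit, none of the 88 had an absolute log2(fold change) above 1.

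The other HSF1 target genes, such as Hspa4l, Dnaja1, Stip1 and Hspd1, share their regulator with the inducible members. Of 17 genes 16 were tested, and under lefamulin none was called in edgeR (2 higher and 2 lower at an unadjusted p below 0.05) or in DESeq2. The median log2(fold change) was 0.06, and 13.1% of all tested genes were called in edgeR. The number called depended on the setting. Without tiamulin 2, 3 genes were called higher under lefamulin (Hspa4, Hspa4l and Hspb8) and 2 lower (Hspd1 and Stip1), beside 12.2% and 12.7% of all tested genes. With GC and length trends removed by offsets, 1 was called higher (Hspa4l) and 3 lower (Hspd1, Dnaja1 and Stip1), beside 10.6% and 14.6%. Under tiamulin 1 rose and 3 fell, with a median of -0.05, beside 9.08% higher and 7.34% lower among all tested genes. The counts under tiamulin were 1 and 4 without tiamulin 2 (11.7% and 11.3% of all tested genes) and 2 and 6 with the offsets (13.2% and 14.1%). Hspa4l, an HSP110 protein, rose by 0.29 on the log2 scale (edgeR adjusted p = 0.00939). Dnaja1, a J protein that partners Hspa8, fell by 0.38 (edgeR adjusted p = 0.000912), Hspd1, the mitochondrial chaperonin HSP60, fell by 0.29 (edgeR adjusted p = 0.00284), and Stip1, which bridges HSP70 and HSP90, fell by 0.25 (edgeR adjusted p = 0.00779). Dnaja1 was counted 8136, 8770 and 8550 times in control, 7067, 7559 and 7557 times in lefamulin and 6451, 5393 and 6685 times in tiamulin libraries, and it was lower under tiamulin than under lefamulin (log2 difference -0.29, edgeR adjusted p = 0.0199). That difference did not pass without any 1 of the lefamulin libraries (-0.30 to -0.28), nor did Hspa4l without control 1 (0.25).

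Of 8 exchange factors and HSP70 partners, Bag2, which also restrains the ubiquitin ligase CHIP, fell under lefamulin (log2(fold change) -0.30, edgeR adjusted p = 0.0155) and under tiamulin (-0.34, edgeR adjusted p = 0.00495), and Bag1 fell under tiamulin (-0.20, edgeR adjusted p = 0.0145). Of 15 HSP90 co-chaperones, Fkbp5, an immunophilin of steroid receptor complexes, fell under lefamulin (-0.28, edgeR adjusted p = 0.0225) and under tiamulin (-0.44, edgeR adjusted p = 0.00108), and Stip1 fell under tiamulin. Some other settings called more of the 15, and also more of all tested genes. Without tiamulin 2, lefamulin called Ptges3 and Cdc37l1 higher and Stip1 and Fkbp5 lower, and with the offsets tiamulin called Cdc37 higher and Fkbp4, Stip1, Ahsa1 and Fkbp5 lower. Fkbp5 had 1461, 1458 and 1545 counts in control, 1070, 1219 and 1108 in lefamulin and 1043, 1104 and 949 in tiamulin libraries, so both treated groups lay below the controls. The lefamulin call of Bag2 was lost without control 2 or lefamulin 2 or 3 (-0.29 to -0.24), that of Fkbp5 without any 1 control or lefamulin 1 or 3 (-0.29 to -0.27), and the tiamulin call of Bag1 without control 3 (-0.18).

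The J proteins and the cytosolic chaperonin were mixed. Of 15 tested J proteins, lefamulin raised Dnajb6 (0.19, edgeR adjusted p = 0.0378) and lowered Dnajc17 (-0.57, edgeR adjusted p = 0.0321). Tiamulin raised Dnajb6 (0.18, edgeR adjusted p = 0.0381) and lowered Dnaja1 and Dnajc9 (-0.20, edgeR adjusted p = 0.0482). Apart from that of Dnaja1, these calls were near the threshold. Under lefamulin Dnajb6 was lost without any 1 of the control or lefamulin libraries (0.18 to 0.22) and Dnajc17 without any 1 control or lefamulin 1 or 3 (-0.62 to -0.42), and under tiamulin Dnajb6 was lost without any library but tiamulin 2 (0.18 to 0.20) and Dnajc9 without any 1 of the 9 (-0.22 to -0.15). Of the 14 TRiC and prefoldin subunits, Cct2 rose under both drugs (0.15 and 0.24, edgeR adjusted p = 0.0437 and 0.00226), and under tiamulin Cct4 rose (0.25, edgeR adjusted p = 0.00663) while Cct3 fell (-0.23, edgeR adjusted p = 0.00321). The lefamulin call of Cct2 was lost without any 1 control or lefamulin library or without tiamulin 1 (0.14 to 0.17).

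Of 8 other small heat shock proteins 3 were tested, and of 5 genes for other heat shock factors and regulators of HSF1 4 were tested. Hspb6, a relative of Hspb1, had 167, 175 and 152 counts in control, 265, 253 and 243 in lefamulin and 213, 249 and 214 in tiamulin libraries, with both treated groups above the controls. It rose by 0.73 on the log2 scale under lefamulin (edgeR adjusted p = 0.00111) and by 0.54 under tiamulin (edgeR adjusted p = 0.00742), and both calls held in each of 21 alternative settings. Hsf2, a heat shock factor known from development, rose under lefamulin (0.28, edgeR adjusted p = 0.02), though not without control 1 or 3 or lefamulin 1 or 3 (0.25 to 0.28). Hsf4, known from the lens, rose under tiamulin (0.67, edgeR adjusted p = 0.0441) from 48 to 53 counts in control to 65 to 85 counts in tiamulin libraries. That call was lost without any 1 control, lefamulin 1 or 2, or tiamulin 1 or 2 (0.55 to 0.72).

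Chaperones of other compartments stand beside those of the cytosol here. In the endoplasmic reticulum, 6 of 12 genes rose under lefamulin, beside 7.07% of all tested genes, with a median log2(fold change) of 0.17. In the fit of all 9 libraries 0 fell (0 at an unadjusted p below 0.05 in edgeR, 0 in DESeq2), against 6% of all tested genes. With the GC and length offsets, however, Pdia3 and Pdia6 were called lower and 6 genes higher, beside 14.6% and 10.6% of all tested genes. Under tiamulin 2 rose and 2 fell, beside 9.08% and 7.34% of all tested genes. With the offsets this became 5 and 5, beside 13.2% and 14.1%. Without control 1 only 2 of the 12, Hspa5 and Sdf2l1, were called under lefamulin, in a fit that called 1146 genes in all, against 1897. Hspa5, the HSP70 of this compartment and a target of the unfolded protein response, was at 927 ± 28.6 CPM in control, 1471 ± 21.9 CPM under lefamulin and 1168 ± 30.2 CPM under tiamulin (SD, n = 3), and the groups did not overlap. It rose under lefamulin (0.67, edgeR adjusted p = 6.45e-07) and under tiamulin (0.33, edgeR adjusted p = 0.000236), and was lower under tiamulin than under lefamulin (-0.33, edgeR adjusted p = 0.00133). Its partners Sdf2l1 (0.67, edgeR adjusted p = 0.0012) and Dnajb9 (0.41, edgeR adjusted p = 0.0237) and the HSP90 of the compartment, Hsp90b1 (0.29, edgeR adjusted p = 0.00848), also rose under lefamulin. Under tiamulin Sdf2l1 rose (0.48, edgeR adjusted p = 0.00886), and Pdia3 and Pdia6, which form disulfide bonds, fell (both -0.22, edgeR adjusted p = 0.0181 and 0.0109). Among these, Dnajb9 was lost without control 1 or 3 or lefamulin 1 or 3 (0.35 to 0.44), Hsp90b1 without control 1 (0.24), Dnajb11 and Pdia4 each without control 1 or 3 or lefamulin 1 or 2 (0.23 to 0.28 and 0.20 to 0.22) and Pdia3 without control 2 or 3 (-0.23 to -0.19). Between the drugs 2 of the 12, Hspa5 and Calr, were called, both lower under tiamulin, beside 2.05% of all tested genes called lower. The Calr call held in 19 of 21 alternative settings and was lost without lefamulin 3 (-0.26). Of 8 mitochondrial chaperones, Trap1 fell under lefamulin (-0.20, edgeR adjusted p = 0.0399), though not without any 1 of the control or lefamulin libraries (-0.22 to -0.17). Under tiamulin Hspd1 fell, as given before, and Hspa9 rose (0.18, edgeR adjusted p = 0.0276), a call lost without any 1 control, lefamulin 2 or tiamulin 1 or 3 (0.15 to 0.19).

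**Figure D5:**
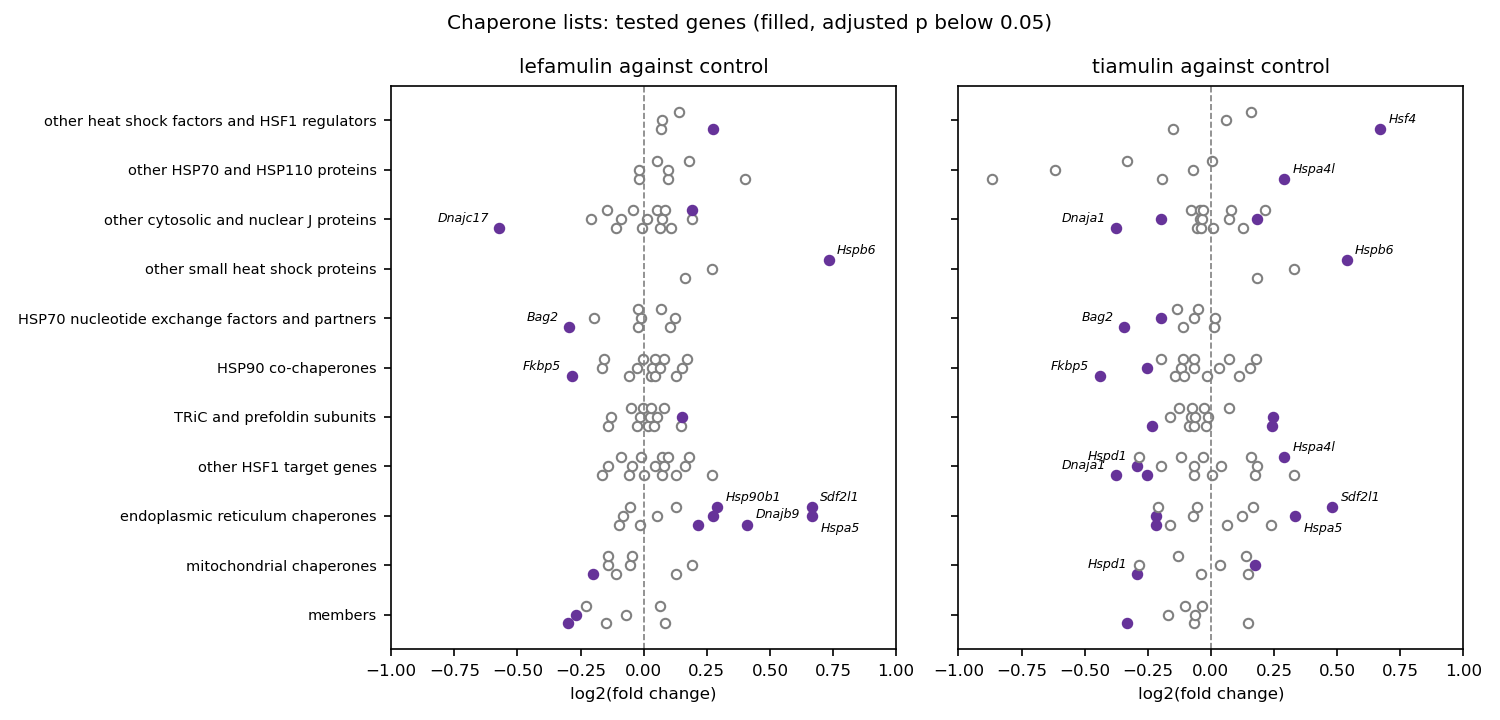
log2(fold change) of the tested genes of 10 chaperone lists and of the members (bottom row), under lefamulin (left) and tiamulin (right). A point is a gene, with small vertical offsets for legibility only, and filled points have an adjusted p below 0.05. A gene on 2 lists is drawn in both. Under lefamulin the 6 filled points of the endoplasmic reticulum lie above 0 and the 2 filled members lie below 0.

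Across the 9 libraries, Hspa8 and Hsp90ab1 moved together (Pearson's r of log2 CPM 0.94), while Hsp90aa1 and Hsp90ab1 moved apart (r of -0.71). These are descriptions over libraries that fall into 3 groups. The tested genes most like each member over the same 9 libraries were Nid1 (r = 0.99) for Hspa8, Adgra2 (0.985) for Hsp90ab1, Ccp110 (0.974) for Hsp90aa1, Ak4 (0.983) for Hsph1, Mbtps1 (0.965) for Dnajb1, Cluh (0.986) for Bag3 and Sphk2 (0.965) for Hsf1. The second most like Hsp90ab1 was Gm15459, the pseudogene that shares stretches with Hspa8.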

How the data were processed

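RNA-Seq libraries of Hepa1-6 cells were grouped by the sample labels into 3 control, 3 lefamulin and 3 tiamulin libraries. The authors deposited raw read counts per gene and FPKM per gene and library. The submitters' processing notes name CASAVA 1.8, fastp, HISAT2 2.0.5, featureCounts 1.5.0-p3, DESeq2 1.20.0 and build mm10, with no role or order. Whether counting used strand, and how reads that fit several genes were handled, is not given in the sources used here. Deposited gene positions differed from those in GRCm38 for each of the 10 members, so they are printed as deposited and their build was not settled. Promoter positions are those of GRCm38.p6.

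After TMM normalization, edgeR 4.0.16 (R 4.3.3) was run with filterByExpr and its robust quasi-likelihood test. One model held all 9 libraries, with group and no covariate, and p values were adjusted by Benjamini-Hochberg over 14510 genes. Calls have an adjusted p below 0.05, and the fold threshold of the study, an absolute log2(fold change) above 1, was counted beside it. SE and 95% intervals come from the same fit. Ratios within a library were compared with an exact two-sided permutation test (scipy 1.17.1). Alternatives were DESeq2's size factors, DESeq2 1.42.0, no filter or at least 10 counts in each library, edgeR on only the pair of groups compared, a block for the replicate number, offsets for GC content and gene length (GENCODE M21, 14242 genes), limma 3.58.1 on log2(FPKM + 1) and log2(FPKM + 0.1) for genes with FPKM over 1 in at least 3 libraries or without that filter, Hspa1a and Hspa1b summed, and leaving out each library.

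The members and the gene lists were chosen with earlier results of these data known, so no count of members is independent evidence. Named besides the members are the 12 list genes with the largest called change under either drug against control, the called genes of lists with 5 or fewer calls, and the genes most like each tested member by Pearson's r. Also named are some list genes whose call depended on the setting, namely Dnajb11, Pdia4, Ptges3, Cdc37l1, Cdc37, Fkbp4, Ahsa1, Hspa4 and Hspb8. Total counts of 15568887 to 18008105 limit genes of few counts, and floors of 3 counts cover counting error only.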

Additional observations from a re-analysis of the deposited data

How the results depend on the processing

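The lower Hspa8 and Hsp90ab1 under lefamulin and the lower Hsph1 under tiamulin kept direction and call in each of 21 alternatives (edgeR, DESeq2 or limma adjusted p at most 0.00601, 0.0452 and 0.00489). Every count out of 21 includes the setting with Hspa1a and Hspa1b summed. That setting had to equal the main fit, since both genes are at 0 in each library. Under each drug against control, 4 members were called without tiamulin 2. The labels give no batch, and the causes of the shifts below were not tested except where an alternative drops genes or samples.

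For lefamulin against control, 4 members were called with GC and length offsets, with those offsets plus the replicate block, and with the 2 groups alone, against 2. Hsph1 then passed at -0.17, -0.17 and -0.15, and at -0.15 in DESeq2, and Dnajb1 passed at -0.26, -0.26 and -0.23. List genes called numbered 27, 22 and 26 in the same settings, 9 with the block alone and 4 in limma without a filter, against 14, and all genes called numbered 3585, 3276 and 3511, and 783 in limma without a filter, against 1897.

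For tiamulin against control, 4 members were called with the offsets and 2 with block and offsets, against 1. Hspa8 (-0.10), Hsp90ab1 (-0.092) and Dnajb1 (-0.21) passed with the offsets, and Dnajb1 (-0.21) with both. List genes called numbered 33 and 31, and 12 in limma without a filter, against 19, and all genes called 3894, 3640 and 1166, against 2383.

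For tiamulin against lefamulin, 1 member was called in limma with either pseudocount and 0 in limma without a filter, with the block and with the 2 groups alone, against 2. Hsp90ab1 missed the threshold in those 5 settings at 0.20 each, and Hspa8 in limma without a filter (0.20), with the block (0.19) and with the 2 groups alone (0.19). Hsph1 passed in DESeq2 (-0.18), with at least 10 counts (-0.19), with the offsets (-0.18) and with both (-0.18). Hsf1 turned to -0.0020 with the offsets and -0.0021 with both. List genes called numbered 8 in DESeq2 and without a count filter, 17, 12 and, in limma without a filter, 1, against 3, and all genes called 1271 without a count filter, 1925, 1586, 443 and 444 in limma with either pseudocount, 103 in limma without a filter, 263 with the block and 280 alone, against 711.

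Leaving out each library gave 2 to 4, 1 to 4 and 0 to 3 members called in the 3 comparisons, 4 to 27, 13 to 22 and 1 to 11 list genes, and 993 to 3708, 1462 to 3433 and 204 to 1309 genes in all. Ranges for lefamulin were -0.28 to -0.17 for Dnajb1, -0.17 to -0.13 for Hsph1 and -0.13 to 0.00034 for Bag3. Under tiamulin they were -0.12 to -0.10 for Hspa8, -0.13 to -0.029 for Hsp90ab1, -0.25 to -0.10 for Dnajb1 and -0.20 to 0.073 for Bag3. Between the drugs they were 0.18 to 0.20 for Hspa8, 0.14 to 0.24 for Hsp90ab1, -0.20 to -0.16 for Hsph1, -0.039 to 0.13 for Hsf1, -0.023 to 0.13 for Dnajb1 and -0.13 to 0.14 for Bag3. The log2 ratio of Hsp90aa1 to Hsp90ab1 under tiamulin ranged from -0.050 to 0.11, and Hsf4 under lefamulin from -0.17 to 0.18.

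Replicate numbers are shared between groups in the labels, but same-numbered libraries did not deviate together (correlations of -0.425 to 0.0422 over 9 pairs). These deviations still held the GC trends given before, which could hide a pairing, so whether the numbers pair libraries was not settled. The block for the replicate number moved all genes called to 1304 for lefamulin and 1811 for tiamulin and changed no member call against control.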
